A study of Homo sapiens with 14 samples.

Results

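SR proteins and heterogeneous nuclear ribonucleoproteins (hnRNPs) were followed through ADAR1 knockdown in HepG2 cells, an established human liver carcinoma line. The members are the rows of the deposited gene table with a symbol made of SRSF and a number, or starting with HNRNP, and there are 35 of them among 21574 rows, 12 of SRSF and 23 of HNRNP genes. Control cells carried scrambled siRNA and knockdown (KD) cells siADAR1, and the labels give both transfections as stable. The study's methods use that word too, but give the silencing a duration counted in hours. There are 14 samples. In 8 PARS-seq libraries, poly-A RNA was cut with S1 nuclease, which prefers unpaired bases, or with RNase V1, which prefers paired bases, with 2 replicates of each nuclease and condition. Ribo-seq, which sequences fragments protected by ribosomes, has 2 replicates of each condition, and RNA-seq has 1 library of each, so that RNA-seq differences have no replicate check. The study calls the replicates biological, but the labels name no separate cultures, so p-values measure the spread between these samples, part of which may be technical.

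SR proteins bind exonic enhancer sequences through RNA recognition motifs and recruit the splicing machinery through their arginine- and serine-rich tails. Many hnRNPs bind silencer sequences in exons and introns and oppose them, so the ratio of both groups helps set which exons are kept. Members of both families also act in export, stability and translation of mRNA, and many control their own levels through alternative exons that lead to decay of the transcript.

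Gene levels are RPKM, reads scaled by gene length and library size, as deposited by the authors. A PARS-seq value is their mean over both nucleases of that replicate. Of the 35 rows, 6 carry several symbols and also count another gene, such as BSCL2 with HNRNPUL2, RPL36A with HNRNPH2, and the microRNA gene MIR7-1 with HNRNPK. The pseudogenes HNRNPA3P1 and HNRNPKP3 and the antisense RNA HNRNPU-AS1 fall under the rule by name. Levels of genes with near-identical copies, HNRNPA1 and HNRNPA3 among them, are uncertain, since only uniquely aligned reads were counted. ADAR itself checks the labels. It had 40.7 and 46.8 RPKM in the PARS-seq controls and 15.1 in both KD replicates, and fell from 54.8 to 15.4 in RNA-seq. In Ribo-seq ADAR went from 43.6 to 8.73 in replicate 1, but was at 0.794 of its control in replicate 2. Its RPKM in Ribo-seq KD replicate 2 was slightly higher than in control replicate 1, so its KD and control values overlap. The 2 KD libraries of this assay thus differ in how far ADAR was lowered, and limma did not call ADAR in Ribo-seq. For Ribo-seq KD replicate 2, the ADAR level does not bear out the label.

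Most members were abundant in control cells. Among genes of at least 1 RPKM in the RNA-seq control, the 30 members that passed had a median of 72.5 RPKM, against 10.1 over all 10931 genes. The hnRNP rows had a median of 97.3 and the SRSF rows of 36.8. HNRNPA2B1, an hnRNP that packages nuclear transcripts, was the highest with 339 RPKM, followed by HNRNPAB with 307, HNRNPD with 175, HNRNPH1 with 136 and HNRNPM with 130. Of the SR proteins, SRSF4 led with 92.1, ahead of the SRSF2 row with 83.1, SRSF9 with 68.2, SRSF5 with 47.5 and SRSF3 with 37.2. Under 1 RPKM were SRSF10 with 0.113, the HNRNPCL1 row with 0.455, HNRNPA3P1 with 0.0245, and HNRNPKP3 and SRSF12, both listed at 0.

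**Figure D1:**
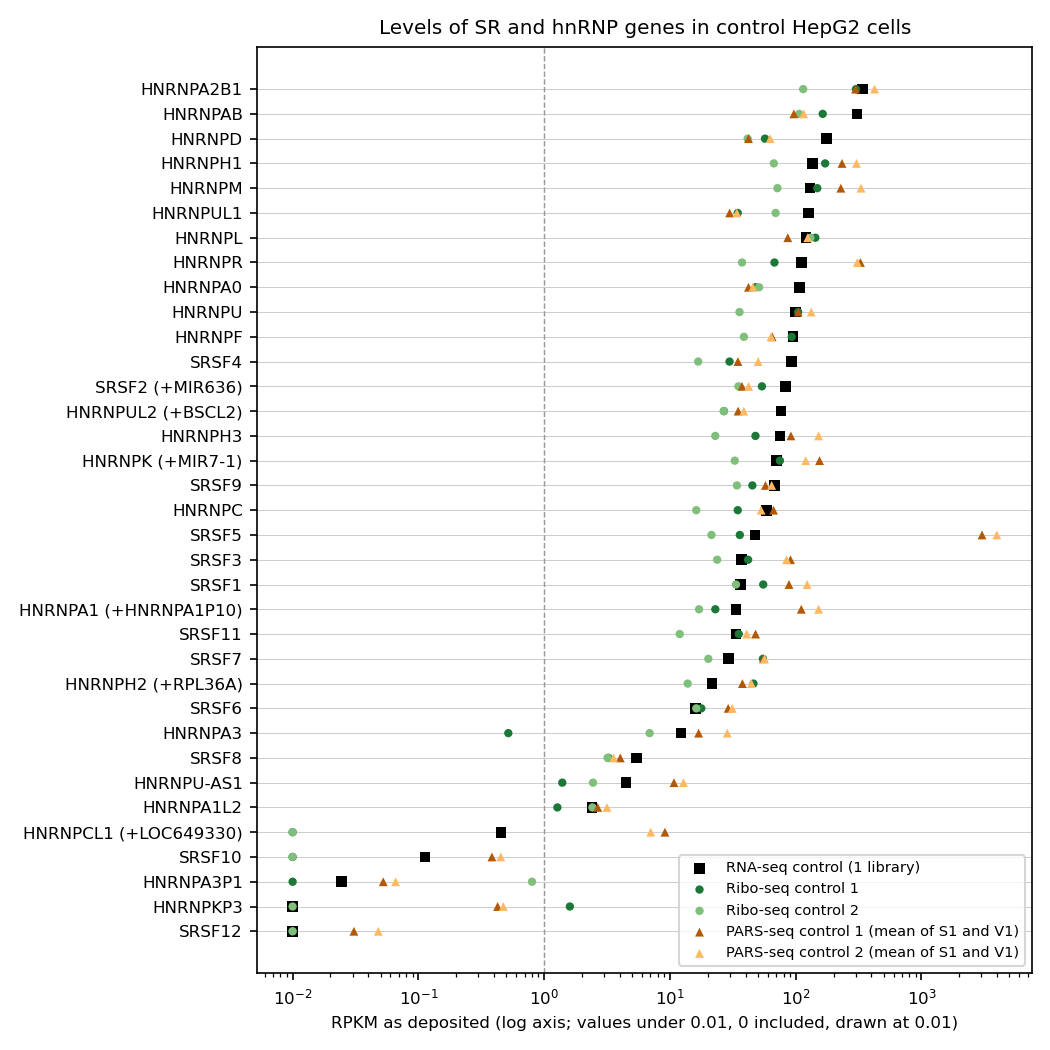
RPKM of the 35 members (log axis) in the control libraries of RNA-seq, Ribo-seq and PARS-seq, ordered by the RNA-seq control, with values under 0.01 drawn at 0.01. SRSF5 stands apart in PARS-seq, at 3029 and 3969 RPKM against 47.5 in RNA-seq.

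The Ribo-seq to RNA-seq ratio in control cells, a measure of ribosome load per transcript, could be formed for the 29 members with at least 1 RPKM in the libraries concerned. Its median was 0.684 in replicate 1 and 0.475 in replicate 2, against 0.777 and 0.617 over 9357 genes, and 13 and 7 of the 29 lay above the median of all genes. By the geometric mean of both replicates, SRSF1, the prototype SR protein, had a high ratio, with 1.52 and 0.923. So did SRSF7, which also acts in mRNA export, with 1.87 and 0.688. HNRNPL, with 1.18 and 1.08, was close to SRSF7 by this mean and the highest member in replicate 2. The HNRNPH2 row reached 2.14 and 0.640, but it also counts the ribosomal protein gene RPL36A. At the low end by the geometric mean were SRSF4 with 0.323 and 0.182 and HNRNPD with 0.325 and 0.237. The HNRNPUL2 row came next, with 0.353 and 0.352. Single replicates rank members differently. HNRNPUL1 was the lowest in replicate 1, with 0.273, but had 0.547 in replicate 2. In replicate 2 some other members, such as HNRNPC with 0.277, lay below the HNRNPUL2 row. The replicates differ by more than many members differ from each other. HNRNPA3, which has no ratio here because it was under 1 RPKM in one library, had 0.519 RPKM in Ribo-seq control replicate 1 and 6.89 in replicate 2.

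The ratio of PARS-seq to RNA-seq had a median of 1.18 and 1.32 over 30 members in the control replicates, against 0.977 and 0.946 over 9976 genes. It ran from HNRNPUL1, with 0.236 and 0.269, HNRNPD, with 0.241 and 0.357, and HNRNPAB, with 0.315 and 0.377, up to SRSF1, with 2.44 and 3.40, and the HNRNPA1 row, with 3.30 and 4.53. SRSF5, an SR protein that binds exonic enhancers, lay far beyond, with 63.7 and 83.5, at the 99.9 percentile of all genes in both replicates.

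**Figure D2:**
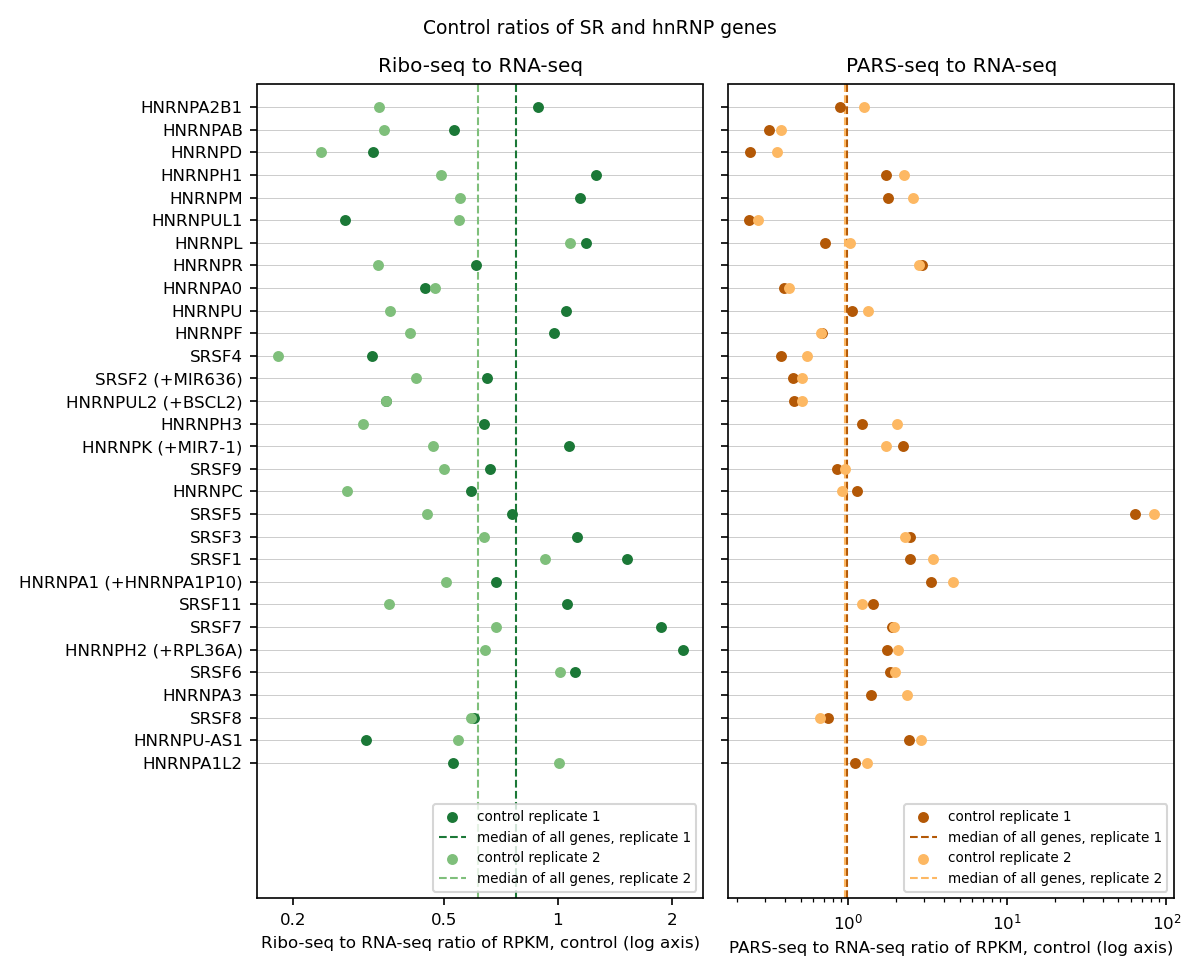
Ratios of Ribo-seq to RNA-seq and of PARS-seq to RNA-seq RPKM in control cells (log axes) for members with at least 1 RPKM in the libraries concerned, 29 and 30 in turn, with dashed lines at the median of all genes in each replicate. The Ribo-seq replicates lie apart for most members, while the PARS-seq replicates lie closer together for most, with SRSF5 far to the right.

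In PARS-seq, 31 members passed the filter of a mean of 1 RPKM and 3 of them were called after knockdown, HNRNPUL1 and HNRNPD higher and SRSF9 lower, where 1636 of 11153 genes, or 14.7%, were called by limma at a Benjamini-Hochberg adjusted p under 0.05. The share of members is no larger than that of all genes. Changes are on the scale of log2 (RPKM + 1) after scaling each library by its median ratio. The median change of the 31 members was 0.17, against 0.0046 over all genes, and 23 of 31 lay above 0, where 50.5% of all genes did. The hnRNP rows had a median of 0.25, with 17 of 21 above 0, and the SRSF rows of 0.087, with 6 of 10 above 0. In same-numbered replicates, 22 members were above 0 in both, 5 below 0 in both and 4 opposite. The count of called members depends on single libraries, as does that over all genes. Without control replicate 2 it was 6, beside 2400 of 11156 genes, without control replicate 1 it was 2, beside 1185 of 11177, without KD replicate 1 it was 3, beside 1484 of 11132, and without KD replicate 2 it was 1, beside 985 of 11129.

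HNRNPUL1, an hnRNP U-like protein with a role in DNA repair and RNA processing, showed 29.8 and 34.0 RPKM in the PARS-seq controls and 61.5 and 79.9 in the KD replicates. Both KD values lie above both controls, and HNRNPUL1 rose by 1.08 ± 0.19 (SE, 2 against 2) on the log2 scale, with a limma adjusted p of 0.010. The call held with each library left out, where the adjusted p ran from 0.00046 to 0.034. HNRNPUL1 was also the largest RNA-seq difference upward among members, with 126 RPKM in the control and 203 in KD. In Ribo-seq it had 34.6 and 69.2 in controls and 48.9 and 60.7 in KD, so that the KD values lie between the controls. The gene lies on chromosome 19 from 41768401 to 41813692 on the plus strand of GRCh37, where it overlaps TGFB1 on the minus strand. The counting command in the study's methods has no strand option, so reads of an overlapping gene may be included.

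HNRNPD, or AUF1, binds AU-rich elements and helps control mRNA decay. It had 42.1 and 62.6 RPKM in the PARS-seq controls and 88.6 and 137 in KD, again without overlap. HNRNPD rose by 1.05 ± 0.26 (SE) on the log2 scale with a limma adjusted p of 0.033, but the adjusted p was 0.118 without KD replicate 2, the highest of its libraries. Its RNA-seq values were 175 and 239. In Ribo-seq the controls had 57.0 and 41.5 RPKM and the KD libraries 93.1 and 63.4, with no overlap but a limma adjusted p of 1.00. It lies on chromosome 4 from 83273651 to 83295656 on the minus strand of GRCh37, with no other coding gene over it.

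SRSF9, an SR protein that takes part in splice site choice, moved the other way, with 57.5 and 64.4 RPKM in the PARS-seq controls and 38.1 and 41.6 in KD. SRSF9 fell by 0.64 ± 0.17 (SE) on the log2 scale, with a limma adjusted p of 0.042. This call was lost when any of the 4 libraries was left out, at an adjusted p of 0.051 without control replicate 1, 0.091 without control replicate 2, 0.174 without KD replicate 1 and 0.122 without KD replicate 2. In Ribo-seq it had 45.2 and 34.1 in controls and 31.3 and 31.4 in KD, and in RNA-seq 68.2 and 59.0. All of these KD values are below their controls, though the Ribo-seq adjusted p was 1.00 and RNA-seq has no test. SRSF9 lies on chromosome 12 from 120899475 to 120933749 on the minus strand of GRCh37, where it overlaps DYNLL1 and GATC on the plus strand. With no filter on low values, none of the 3 calls passed, with limma adjusted p from 0.066 to 0.156. In that setting 535 of 19048 genes were called.

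HNRNPD and SRSF9 have a single start each in the RefSeq promoter table (GRCh38.p14), and their 250 bases before the start are shown because these members moved in opposite directions. Of 37 member symbols 31 matched, with 44 promoters. Capitals mark matches, on either strand, to the TATA box TATAAA, the CCAAT box CCAAT, the GC box GGGCGG, the E box CACGTG and the ETS core CCGGAA, none of which overlap here. The HNRNPD promoter is chr4:82373992-82374241 and the SRSF9 promoter chr12:120469749-120469998, both on the minus strand and written 5′ to 3′.
HNRNPD: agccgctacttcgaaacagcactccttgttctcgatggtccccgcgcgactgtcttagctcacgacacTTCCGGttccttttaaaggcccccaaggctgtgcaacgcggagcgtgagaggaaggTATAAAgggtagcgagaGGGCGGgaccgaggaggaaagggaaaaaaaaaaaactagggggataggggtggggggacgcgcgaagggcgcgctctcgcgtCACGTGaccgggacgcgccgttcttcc
SRSF9: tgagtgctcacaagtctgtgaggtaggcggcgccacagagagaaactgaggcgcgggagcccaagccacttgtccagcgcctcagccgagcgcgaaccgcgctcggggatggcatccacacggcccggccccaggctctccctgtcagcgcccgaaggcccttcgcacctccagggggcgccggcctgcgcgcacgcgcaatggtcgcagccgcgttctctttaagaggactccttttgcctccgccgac
HNRNPD matches 4 of the 5 motifs and SRSF9 none of them. SRSF1, which was not called, also matches none, while many other members that were not called match some. HNRNPUL1 has 3 starts in the table, none of which was chosen. Over the members' promoters, 13.6% hold the TATA box, 47.7% the CCAAT box, 56.8% the GC box, 11.4% the E box and 15.9% the ETS core, against 10.7%, 32%, 42.6%, 6.34% and 14.5% of all 35116 promoters. A match is a description of letters and not a binding site.

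With all libraries and the main settings, the other members did not pass the PARS-seq test. Closest were the HNRNPUL2 row, with 34.9 and 38.6 RPKM in controls and 50.4 and 67.4 in KD and a limma adjusted p of 0.069, HNRNPF, which binds G-rich RNA, with an adjusted p of 0.086, and SRSF1, with 0.095. The HNRNPUL2 row passed at an adjusted p of 0.044 without control replicate 2 or without KD replicate 1. HNRNPC, which binds uridine tracts, had 66.6 and 53.1 in controls and 47.9 and 52.9 in KD, with a narrow gap between groups. The HNRNPH2 row had 37.7 and 44.4 in controls and 33.2 and 37.7 in KD, so that its groups overlap slightly.

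In RNA-seq, 2 of 30 members were past 1.5-fold, HNRNPUL1 at a log2 ratio of 0.69 and HNRNPA3 at −0.64, where 1004 of 10946 genes, or 9.17%, were. HNRNPA3, a relative of HNRNPA1, had 12.2 RPKM in the control and 7.40 in KD, at levels where 1 library gives no measure of error. The members' median was 0.064 against −0.0032 over all genes. Of the hnRNP rows 16 of 20 were above 0, and of the SRSF rows 3 of 10, where 49.5% of all genes were. HNRNPF had 95.2 in the control and 121 in KD. SRSF11 had 33.4 and 27.4.

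In Ribo-seq, none of the 30 members tested was called by limma, in a comparison in which 0 of 10882 genes, or 0%, were, and 39 of all genes but no member had an unadjusted p under 0.05. This comparison counts KD replicate 2 as knockdown by its label, although its ADAR level was not below that of control replicate 1. The members' median was 0.23 against 0.0091 over all genes, with 25 of 30 above 0, where 51.1% of all genes were. In same-numbered replicates, 17 members were above 0 in both, 2 below 0 in both and 11 opposite, so the direction of many members differs between replicates. Most members rose more, or fell less, in replicate 2, where ADAR does not bear out the KD label. SRSF7, for example, was at −0.026 in replicate 1 and 0.79 in replicate 2. HNRNPD, HNRNPUL1, HNRNPA3, HNRNPA1L2 and the HNRNPUL2 and HNRNPA1 rows went the other way. HNRNPF had 93.0 and 38.8 RPKM in controls and 123 and 79.7 in KD, so that its groups overlap. Its log2 change of 0.63 was the largest upward with all libraries, but was 0.17 without Ribo-seq control replicate 2, 0.39 without KD replicate 1, 0.88 without KD replicate 2 and 1.10 without control replicate 1. The row of SRSF2, an SR protein of nuclear speckles, had 53.9 and 35.0 in controls and 66.4 and 68.9 in KD. SRSF8 had 3.25 and 3.19 in controls and 1.48 and 4.13 in KD, with its KD values on either side of the controls. By the most common ratio between low values, Ribo-seq KD replicate 1 is 1.41 times as deep as control replicate 1, control replicate 2 is 3.33 times and KD replicate 2 is 2.42 times as deep. A read in Ribo-seq control replicate 2 was worth 12.3 times as much RPKM as one in the RNA-seq control, so low genes rest on fewer reads in Ribo-seq. That library is the deepest of Ribo-seq, so a read was worth still more RPKM in the others.

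The change in the Ribo-seq to RNA-seq ratio was tested by limma as an interaction over the 6 libraries, with the single RNA-seq libraries assumed to vary like those of Ribo-seq. None of 30 members was called, where 0 of 11165 genes, or 0%, were, and 4 of all genes but no member had an unadjusted p under 0.05. Ribo-seq KD replicate 2, with its ADAR level not below that of control replicate 1, enters this test too. The members' median was 0.21 against 0.020 over all genes, with 21 of 30 above 0, where 52.1% of all genes were. The same-numbered ratios were above 0 in both for 13 members, below 0 in both for 4 and opposite for 13. They were higher in replicate 2 than in replicate 1 for most members. SRSF5 had the largest ratio change upward, 0.52 ± 0.67 (SE), and HNRNPUL1 the largest downward, −0.62 ± 1.00 (SE), so that both errors exceed the changes. HNRNPUL1 was at 0.026 without Ribo-seq control replicate 2.

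**Figure D3:**
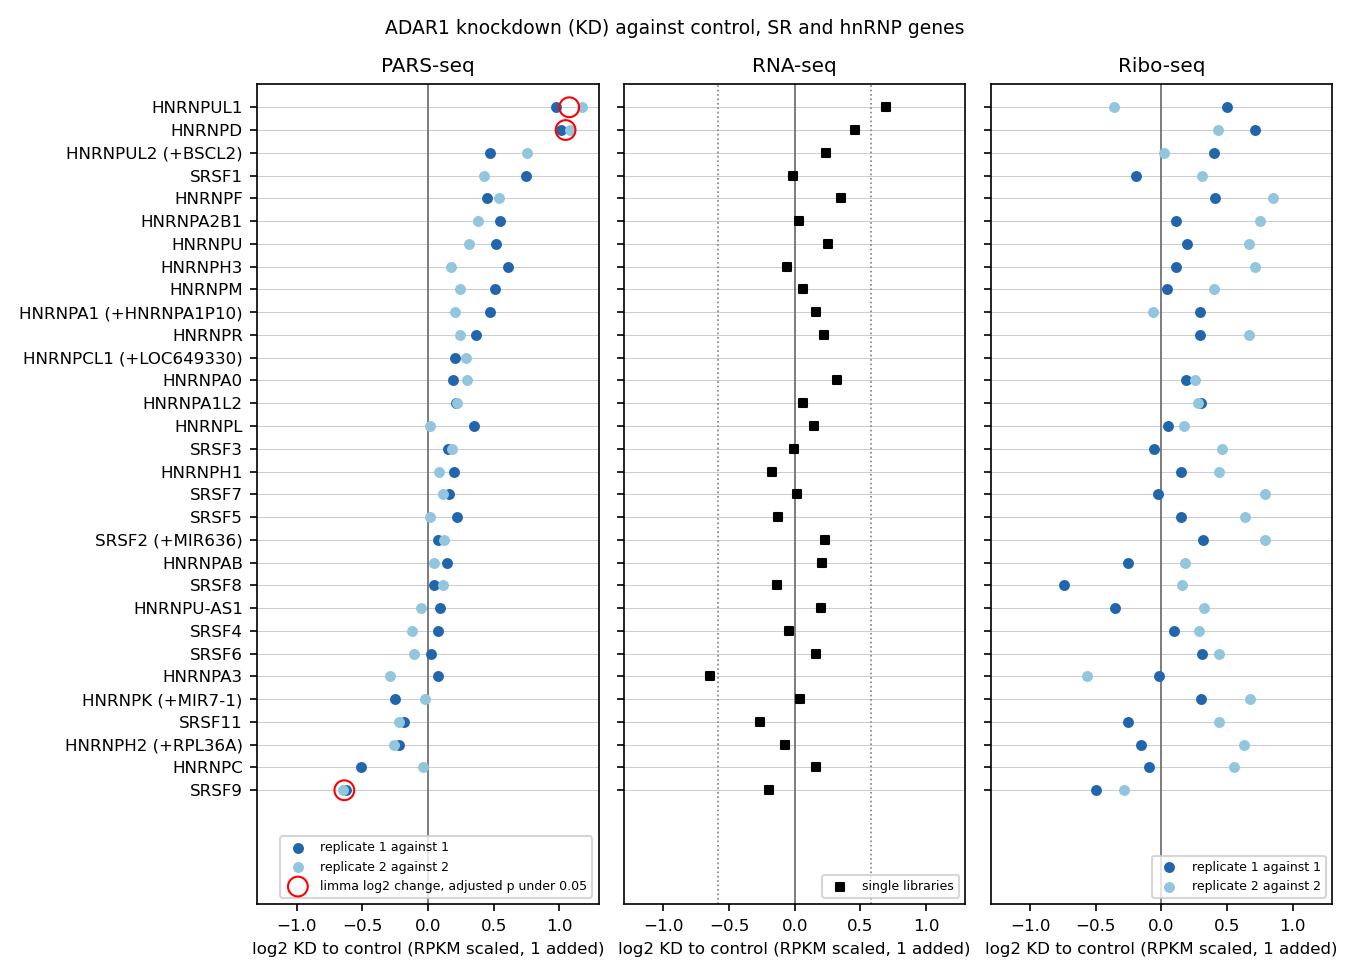
Log2 ratio of KD to control for each same-numbered replicate (scaled RPKM with 1 added) for the 31 members tested in PARS-seq, with the 3 called changes circled and dotted lines at 1.5-fold in RNA-seq. PARS-seq replicates lie on the same side of 0 for most members, while many Ribo-seq replicates lie on either side of 0. Some PARS-seq replicates also lie apart, such as those of HNRNPC at −0.51 and −0.037.

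Read starts at each base were available for the 9 members' transcripts that a list of the study pairs with a UCSC identifier, as far as the copy used here goes, which is cut short. The list holds transcripts with a change in paired bases between these samples, and the same libraries enter the PARS-seq RPKM, so these counts are no independent evidence. HNRNPUL1 had 8037 and 8076 read starts in the S1 controls and 14344 and 14259 in S1 KD, and 9459 and 10461 in the V1 controls and 26717 and 24924 in V1 KD. Counts in this paragraph are not scaled for depth, and V1 KD replicate 1 has the most read starts of all libraries. Scaled, HNRNPUL1 had 10660.7 and 11617.3 in the V1 controls and 20025.5 and 26027 in V1 KD. The KD libraries lie above the controls with both nucleases, also after scaling. HNRNPUL1 rose by 1.23 ± 0.22 (SE) in S1, with a limma adjusted p of 0.00046, and by 1.04 ± 0.21 in V1, with 0.011. HNRNPUL2, a paralog of HNRNPUL1, had 12834 and 15164 in the S1 controls and 20499 and 21110 in S1 KD, and 11405 and 13813 in the V1 controls and 30334 and 29225 in V1 KD. It rose by 0.98 ± 0.23 in S1, with a limma adjusted p of 0.0057, and by 0.91 ± 0.22 in V1, with 0.025. These are 2 of 9 transcripts with each nuclease, where 738 of 4721 transcripts, or 15.6%, were called in S1 and 1775 of 17206, or 10.3%, in V1.

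The V1 calls of HNRNPUL1 and HNRNPUL2 were both lost without V1 KD replicate 2, at adjusted p of 0.121 and 0.277. The S1 call of HNRNPUL2 was lost without S1 control replicate 1, at 0.070, and without S1 KD replicate 2, at 0.080, while that of HNRNPUL1 held with any library left out. HNRNPH3, which is related to HNRNPH1, was not called with all libraries, but was without S1 control replicate 2, at 0.017, and without V1 control replicate 2, at 0.046. Over all transcripts, the S1 count was 383 without control replicate 1 and 477 without KD replicate 2, and the V1 count 3723 without control replicate 2 and 849 without KD replicate 2. Scaling by the library total moved the median of all transcripts by −0.37 in S1 and −0.16 in V1. The main split of 310 higher and 428 lower in S1 became 70 and 878, and that of 658 and 1117 in V1 became 345 and 1314. HNRNPUL1 in S1 was then still called, at an adjusted p of 0.0089, while HNRNPUL2 in S1 and both transcripts in V1 were not, at 0.070, 0.075 and 0.161. Changes given here are relative to the median ratio.

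**Figure D4:**
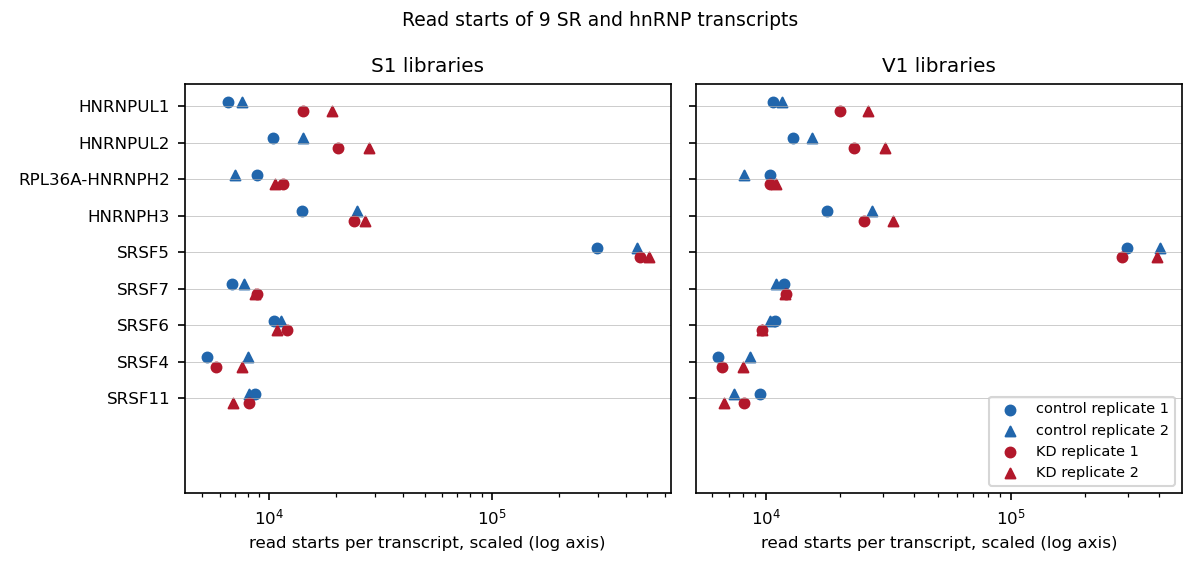
Read starts of the 9 transcripts in the S1 and V1 libraries, divided by each library's size factor (log axis), with controls in blue and KD in red. HNRNPUL1 and HNRNPUL2, which were called with both nucleases, have both KD values above both controls in each. SRSF5 has the most read starts of the 9.

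SRSF5 held its place in every PARS-seq library, at 3029 and 3969 RPKM in controls and 3645 and 4093 in KD. It ranked 6 and 4 of 21574 rows in the controls and 5 in both KD replicates, but 1847 in the RNA-seq control. The change in PARS-seq was 0.12 ± 0.23 (SE), with a limma adjusted p of 0.76. Most of its read starts fell in a short stretch of its transcript of 1517 bases. In the S1 libraries, bases 135 to 234 took 93.2 and 93.3% of read starts in controls and 94.1 and 93.3% in KD. In the V1 libraries, bases 133 to 232 took 75.2 and 80.7% in controls and 76.6 and 81.3% in KD.

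Over transcripts of at least 1000 bases and 1000 read starts, the busiest 100 bases took a median of 31.8 to 34.1% in the S1 libraries (3799 transcripts) and of 22.6 to 23.8% in the V1 libraries (6758 transcripts). SRSF5 was at the 99.6 to 99.7 percentile in S1 and at the 99.4 to 99.6 percentile in V1. Base 205 held the most S1 read starts in all 4 libraries, with 16.6 and 19.2% in controls and 19.5 and 23.4% in KD. Base 139 held 13.4 and 10.4% in controls and 9.68 and 6.87% in KD, so that the share of base 139 was lower and that of base 205 higher in both KD libraries. These bases were chosen after their values were seen, and the difference was not tested. In a wider stretch, bases 101 to 250, lay 97.1 to 98.0% of S1 and 95.9 to 96.6% of V1 read starts. The rest of SRSF5 had 6.64 to 9.71 S1 read starts per base, 3.20 to 4.28 times the median over whole transcripts, and 7.93 to 10.7 V1 read starts per base, 6.88 to 9.03 times the median. Most read starts of SRSF5 thus lie in this stretch, while the rest of the transcript is also above the median. Whether the reads of the stretch come from SRSF5 mRNA was not tested.

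**Figure D5:**
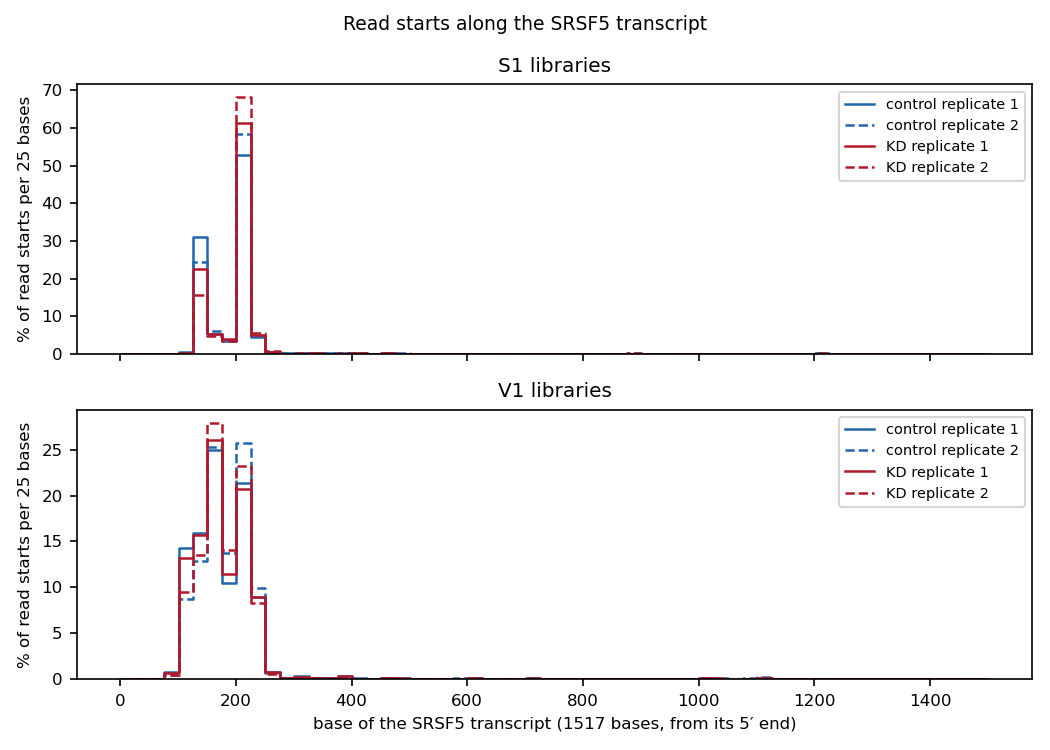
Share of read starts per 25 bases along the SRSF5 transcript in the 4 S1 and 4 V1 libraries, from its 5′ end. Nearly all read starts of every library fall between bases 100 and 250.

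Read starts of the RPL36A-HNRNPH2 transcript were also confined, with 84.0 to 88.6% in the busiest 100 bases of the S1 libraries and 85.8 to 87.4% in those of V1, while 6.98 to 7.73% of its bases had any read start. The other 7 transcripts had from 10.5 to 48.3% in their busiest 100 bases. They are SRSF4, SRSF6, SRSF7, SRSF11, HNRNPH3, HNRNPUL1 and HNRNPUL2.

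Other splicing genes were taken from 4 lists of 64 symbols, of which 63 rows were found. In PARS-seq, 3 rose and 1 fell of 63 tested, a smaller share than the 14.7% of all genes, with a median of 0.13 against 0.0046 over all genes. RNPS1, an SR-related protein of the exon junction complex, had 10.2 and 11.5 RPKM in controls and 18.4 and 19.0 in KD, with a limma adjusted p of 0.025. SRPK1, a kinase that phosphorylates SR proteins, had 27.9 and 32.5 in controls and higher values in both KD replicates, at a log2 change of 0.63 ± 0.17 (SE) and an adjusted p of 0.045. MBNL1, a regulator of alternative splicing, had 7.60 and 5.30 in KD and higher values in both controls, at a log2 change of −0.88 ± 0.19 (SE) and an adjusted p of 0.019. The PTBP3 row, which also holds SUSD1, had 3.43 and 3.03 in controls and 5.78 and 5.03 in KD, with 0.039. All 4 depend on single libraries. The call of RNPS1 held only without control replicate 2, where the adjusted p was 0.017, and was otherwise 0.054 to 0.092. SRPK1 held only without control replicate 2, at 0.027, and was otherwise at 0.123 to 0.181. MBNL1 was lost only without KD replicate 2, at 0.096, and the PTBP3 row whichever library was left out, at 0.051 to 0.163. In RNA-seq, 2 of 62 were past 1.5-fold, against 9.17% of all genes, RNPS1 upward, with 41.2 in the control and 69.7 in KD, and RSRC1 downward, with 10.6 and 6.20. In Ribo-seq and in its ratio to RNA-seq 0 of 63 were called by limma.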

How the data were processed

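Reads had been trimmed with cutadapt and aligned with Bowtie2 to hg19, per the submitters' processing notes and the study's methods, and the authors counted unique reads per RefSeq gene and deposited RPKM. For PARS-seq they also deposited read starts at each base of UCSC transcripts, with 96618292 to 214584779 per library; S1 control replicate 1 lists 4722 transcripts, the others 21052 to 22402. The study's supplement gives aligned reads for PARS-seq only, so relative depth was used for RNA-seq and Ribo-seq. RPKM were divided by median-ratio size factors, filtered at a mean of 1 and tested on log2 (RPKM + 1) with limma 3.58.1 (R 4.3.3, mean trend, Benjamini-Hochberg), after a test on simulated data. Read starts were summed per transcript, with 0.5 added and at least 10 in 2 libraries. Figures used Python 3.11.15 and matplotlib 3.10.9. Named members were the highest, the called and the extremes of each comparison, rows of several symbols and transcripts with an identifier. The members and lists were chosen with earlier results of these data known. Alternatives covered scaling, pseudocount, filters, replicate block and left-out libraries.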

Additional observations from a re-analysis of the deposited data

How the results depend on the processing

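Of the counts and medians, 72 alternative values stayed within their limits and 22 moved; of the changes of single members, 275 kept direction and side of the threshold, 15 lost and 7 gained a call, and 18 turned. Without a filter PARS-seq gave 535 calls of 19048 genes (0 of 35 members), and with a filter at 10 RPKM 804 of 5533 (3 of 28 members). Without a filter the ratio gave 863 of 17793 (0 of 35 members), of which 857 are listed at 0 in all Ribo-seq libraries. Scaled by the total, 1 of the 9 transcripts was called in S1 and 0 in V1, and SRSF7 (−0.10), SRSF4 (−0.34) and SRSF6 (−0.30) in S1 and SRSF7 (−0.083) in V1 turned; the cause was not tested.

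With a library left out, calls ran from 985 to 2400 in PARS-seq (members 1 to 6), from 0 to 1 in Ribo-seq, from 383 to 873 in S1 (of the 9, 1 to 3) and from 849 to 3723 in V1 (0 to 3). Changes ran in Ribo-seq from −1.58 to 1.00 for HNRNPA3 and −0.86 to 0.27 for SRSF8, in the ratio from −0.044 to 0.98 for HNRNPH1, −0.92 to 0.50 for HNRNPU-AS1 and −1.27 to 0.026 for HNRNPUL1, in S1 from −0.28 to 0.34 for SRSF4 and −0.0041 to 0.14 for SRSF6, and in V1 from −0.30 to 0.19 for SRSF5 and −0.24 to 0.20 for SRSF4. The lone library left in a group is assumed to vary like the other groups.

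The replicates of an assay share only a number. With a replicate block, limma called 5546 of 11153 genes in PARS-seq and 10 of 31 members, a smaller share. The HNRNPUL2 row was among them, at an adjusted p of 0.000104. In Ribo-seq, 41 of 10882 genes and 0 of 30 members were called. In S1, 1453 of 4721 transcripts were called (3 of the 9, with RPL36A-HNRNPH2 at 0.0365). In V1, 5767 of 17206 were (3 of the 9, with HNRNPH3 at 0.0427). Deviations of same-numbered libraries correlated at 0.66, 0.81, 0.47 and 0.36 in turn. Low members rest on few reads in Ribo-seq.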
